A study of Mus musculus with 18 samples.

Results

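The genes described here are 9 components of the Hippo pathway: the co-activator genes *Yap1* and *Wwtr1* (which encodes TAZ), the DNA-binding partners *Tead1*, *Tead2*, *Tead3* and *Tead4*, and the regulators *Lats2*, *Amotl2* and *Ajuba*. They were listed by symbol and matched to the Entrez identifiers of the count files. They are 9 of the 27179 genes in the files, and all 9 were among the 17989 genes expressed highly enough to be tested. Their RNA was measured in 6 cell populations sorted from untreated wild-type C57BL/6 mice, young adult males by the methods of the study, with 3 libraries per population and 18 in all. The tracheas of mice 1 to 3 gave basal stem cells (BSCs), gated on the surface receptor NGFR, and a non-basal population that lacked NGFR. The lungs of another 3 mice (4 to 6) each gave 4 populations. EpCAM-positive CD104-positive airway cells were divided into a CD24hi gate, labelled as enriched for ciliated cells, and a CD24lo gate, labelled as enriched for club cells. EpCAM-positive CD104-low cells formed the alveolar population and EpCAM-negative cells the non-epithelial one. The sorts are enrichments by surface protein, so each library holds RNA of a mixture of cells, and tracheal and lung populations differ in organ and animal as well as in cell type.

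Hippo signalling is a kinase relay. The kinases MST1 and MST2 (*Stk4* and *Stk3*), with their scaffold SAV1, activate LATS1 and LATS2, which phosphorylate YAP and TAZ and keep them out of the nucleus. Unphosphorylated YAP and TAZ enter the nucleus, bind TEAD proteins and switch on genes for growth, matrix and cytoskeleton, among them some of the pathway's own inhibitors such as *Lats2* and *Amotl2*. AMOTL2 is a junctional scaffold that holds YAP and TAZ back and AJUBA a LIM-domain protein that restrains LATS kinases. In airway epithelium YAP is known for maintaining basal cells, and in alveoli YAP and TAZ are known for their part in regeneration. Most control of the pathway is by protein phosphorylation and localisation, which RNA counts do not measure.

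The sequence that TEAD proteins recognise has GGAATG at its core (CATTCC when read on the other strand). In RefSeq's GRCm38.p6 promoter table, 12.6% of the 32851 windows of 250 bases upstream of a transcript start held these 6 letters on either strand, and so did at least 1 window of 14.4% of the 27025 genes in it. Of the 9 genes, 7 had a window, *Tead1* and *Tead4* being the others, and 5 of these 7 genes had a match: *Yap1*, *Wwtr1*, *Tead3*, *Amotl2* and *Ajuba*. Among 20 genes widely used as YAP/TAZ and TEAD targets, 13 had a window and 5 a match, including *Ccn1* and *Axl*. The stretches around the matches that touch no annotated exon are given for the members and for *Ccn1* and *Axl*, whose levels are described further on. All are written in the direction of transcription with the match in capitals, and a match is a description of the letters only.
Yap1, chr9:8004712-8004757, minus strand: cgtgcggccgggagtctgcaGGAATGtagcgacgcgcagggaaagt
Wwtr1, chr3:57576021-57576066, minus strand: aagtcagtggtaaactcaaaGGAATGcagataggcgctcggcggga
Tead3, chr17:28350962-28351007, minus strand: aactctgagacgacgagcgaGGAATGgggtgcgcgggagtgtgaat
Ajuba, chr14:54577800-54577867, minus strand: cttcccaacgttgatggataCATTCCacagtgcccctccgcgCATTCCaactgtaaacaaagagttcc
Ccn1, chr3:145650063-145650108, minus strand: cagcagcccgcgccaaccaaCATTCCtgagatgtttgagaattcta
Axl, chr7:25788941-25788983, minus strand: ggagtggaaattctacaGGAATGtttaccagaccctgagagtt
*Ajuba* carried 2 matches, 180 and 158 bases upstream of its start, and the single match of *Ccn1* lay 97 bases upstream.

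Tracheal libraries held 29317215 to 32993621 counted reads and lung libraries 9811503 to 13208897, so low transcripts had more reads in trachea. The tracheal totals exceed the reads per mouse library that the methods state, for which the sources used here give no reason. The defining markers checked for the BSC, CD24hi and EpCAM-negative gates were highest where the labels place them. The summed level of 6 basal markers was 1881 to 1959 RPKM in BSC libraries and at most 188 RPKM in any other, 6 ciliated markers reached 1914 to 2179 RPKM in the CD24hi gate against at most 469.8 RPKM elsewhere, and 6 fibroblast markers summed to 6850 to 7155 RPKM in EpCAM-negative libraries against at most 217.6 RPKM elsewhere. The 4 pan-epithelial markers summed to 14.2 to 18.1 RPKM in EpCAM-negative libraries and to at least 489 RPKM in every other. Club markers (5) summed to 498938 to 702012 RPKM in CD24lo libraries and at most 112192 RPKM elsewhere. Alveolar type 2 markers (6) summed to 163782 to 183939 RPKM in alveolar libraries and at most 7048 RPKM elsewhere. Sums of other lists did not follow the labels, and a sum is led by its most abundant genes. Immune sums were highest in alveolar libraries (36550 to 44280 RPKM) and mesothelial sums lowest in EpCAM-negative libraries (25.0 to 44.9 RPKM). Endothelial markers did not separate the EpCAM-negative gate from the airway gates. Their 6 genes summed to 146 to 253 RPKM in EpCAM-negative, 60.7 to 224 RPKM in CD24hi and 123 to 297 RPKM in CD24lo libraries. Alveolar libraries held 55.5 to 103 RPKM, below the EpCAM-negative range. Lung cells were stained for CD45 and CD31, and the methods give the alveolar gate as negative for both. Levels are given as RPKM, counts scaled to the gene length in the files and to the TMM-adjusted library size, which allows genes to be compared with one another. Differences are log2 fold changes from one edgeR quasi-likelihood fit of all 18 libraries, with their standard error (SE), and a gene is called at a Benjamini-Hochberg adjusted p-value under 0.05 over the 17989 genes. The 3 libraries of a population came from 3 mice. In bulk RNA, fewer cells that express a gene and less of its RNA per cell cannot be told apart.

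**Figure D1:**
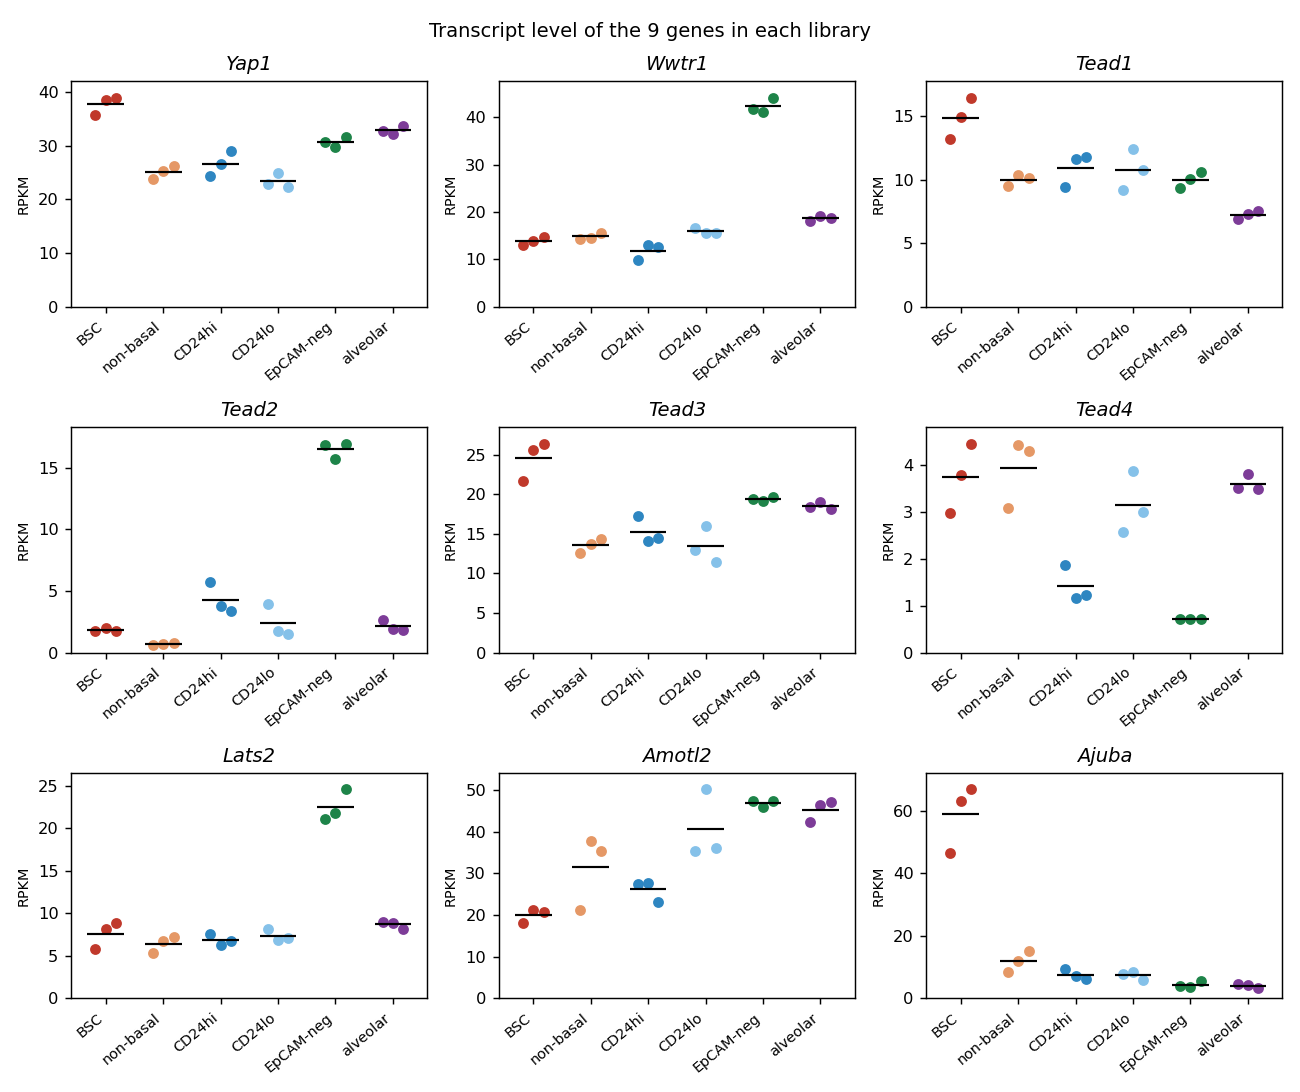
RPKM of the 9 genes (y axes, linear from 0) in each of the 18 libraries (points, replicates 1 to 3 from left to right) of 6 populations (x axes), with the population mean as a line. *Ajuba* stood at 46.6 to 66.9 RPKM in BSCs and at no more than 15.04 RPKM elsewhere, and *Wwtr1*, *Tead2* and *Lats2* were highest in all 3 EpCAM-negative libraries.

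*Yap1* (chromosome 9, 7931999 to 8004638 in GRCm38) was highest in BSCs, whereas *Wwtr1* (chromosome 3, 57455644 to 57575910) was highest in EpCAM-negative cells. *Yap1* was at 35.8, 38.5 and 39.0 RPKM in the BSC libraries and at 23.9, 25.3 and 26.3 RPKM in the non-basal libraries of the same mice. All 3 BSC libraries lay above all non-basal libraries, and the log2 fold change was 0.58 (SE 0.08, adjusted p = 9.12e-06 by edgeR). Alveolar cells held 32.8, 32.1 and 33.6 RPKM of *Yap1*, just below the BSC range, and the log2 difference between BSCs and alveolar cells was 0.20 (SE 0.08, adjusted p = 0.0352 by edgeR). That small difference lost its call in 6 of 16 alternative analyses: the log2 fold change was 0.08 once each library's trend with gene length was removed, 0.13 with the tracheal libraries thinned to the lung depth, 0.19 and 0.18 without BSC replicates 2 and 3, and 0.20 and 0.18 without alveolar replicates 1 and 2. The highest value, 0.60, came with library size alone. In the lung, *Yap1* was at 24.3, 26.6 and 29.0 RPKM in CD24hi cells and at 23.0, 24.9 and 22.4 RPKM in CD24lo cells, ranges that overlapped, and the 95% interval of the log2 difference ran from 0.02 to 0.35 (adjusted p = 0.0612 by edgeR). The difference was called with limma voom (0.18), with DESeq2 (0.19), without CD24hi replicate 1 (0.25), without CD24lo replicate 2 (0.23), without mouse 4 (0.23), with the gene length trend removed (0.26) and with library size alone (0.48). CD24lo cells had less *Yap1* than alveolar cells, with a log2 fold change of -0.49 (SE 0.08, adjusted p = 6.82e-05 by edgeR). EpCAM-negative libraries held 30.7, 29.8 and 31.6 RPKM.

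*Wwtr1* spanned a wider range. Its level in EpCAM-negative cells was 41.8, 41.2 and 44.1 RPKM, and no epithelial library of lung or trachea exceeded 19.1 RPKM. Against the mean of the 3 epithelial lung populations the log2 fold change was 1.48 (SE 0.07, adjusted p = 2.29e-12 by edgeR). Among epithelial cells, alveolar libraries had the highest *Wwtr1* at 18.2, 19.1 and 18.8 RPKM and CD24hi libraries the lowest at 9.87, 13.0 and 12.6 RPKM. BSC libraries held 13.1, 13.8 and 14.8 RPKM, lower than alveolar cells by a log2 fold change of -0.43 (SE 0.09, adjusted p = 5.4e-04 by edgeR), which was -0.025 and not called with library size alone. Non-basal libraries held 14.4, 14.5 and 15.7 RPKM and overlapped the BSC libraries. The 95% interval of that difference ran from -0.29 to 0.10, and no call was made (adjusted p = 0.415 by edgeR). With the mouse as a block in a fit of the tracheal libraries it was -0.11 and called (adjusted p = 0.0261), and scaled by library size without TMM it was 0.25 and called (adjusted p = 0.0392). CD24hi cells had less *Wwtr1* than CD24lo cells (16.7, 15.6 and 15.6 RPKM), with a log2 fold change of -0.43 (SE 0.09, adjusted p = 7.76e-04 by edgeR). The CD24lo libraries lay below all alveolar libraries, without a call (log2 fold change -0.23, SE 0.09, adjusted p = 0.0532 by edgeR). That difference was called with limma voom (-0.227), with the gene length trend removed (-0.239) and without mouse 4 (-0.281), and not in the other alternatives.

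The balance of the 2 co-activator transcripts therefore differed between populations. *Yap1* made up 73.1% ± 0.52 (SD, n = 3) of the summed *Yap1* and *Wwtr1* RPKM in BSCs and 62.9% ± 0.64 in non-basal cells. In the lung its share was 69.3% ± 2.01 in CD24hi cells, 59.4% ± 1.86 in CD24lo cells and 63.7% ± 0.89 in alveolar cells. EpCAM-negative cells were the single population in which *Wwtr1* exceeded *Yap1*, with a *Yap1* share of 42.0% ± 0.32. The BSC range (72.5 to 73.5%) did not overlap that of any other population. The summed level of the pair was 51.6 ± 2.51 RPKM in BSCs and 51.6 ± 0.79 RPKM in alveolar cells, while EpCAM-negative cells held 73.1 ± 2.37 RPKM. On this TMM scale BSCs and alveolar cells differed in the make-up of the pair and hardly in its total. The likeness of the 2 totals depends on that scale. With library size alone the log2 fold changes of BSCs over alveolar cells were 0.605 (*Yap1*) and -0.025 (*Wwtr1*). With the gene length trend removed they were 0.078 and -0.612.

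The 4 TEAD genes encode transcription factors with a shared DNA-binding domain that bring YAP and TAZ to DNA. *Tead1* (chromosome 7, 112679356 to 112906784) and *Tead3* (chromosome 17, 28331671 to 28350805) were the most abundant per length in each epithelial population and were both highest in BSCs. *Tead1* was at 13.2, 14.9 and 16.4 RPKM in BSCs, at 9.51, 10.3 and 10.1 RPKM in non-basal cells and at 6.91, 7.28 and 7.54 RPKM in alveolar cells. The BSC libraries lay above every other library of the series. The log2 fold change of BSCs was 0.57 (SE 0.11, adjusted p = 4.07e-04 by edgeR) over non-basal cells and 1.04 (SE 0.12, adjusted p = 3.59e-07 by edgeR) over alveolar cells, the lowest population. *Tead1* has the greatest length of the 9 in the files (9962 bases), and the median log2 fold change of BSCs against alveolar cells was 0.25 in the longest quintile of genes and -0.46 in the shortest. With that trend removed the difference from alveolar cells was 0.59 and still called.

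*Tead3* was at 21.6, 25.5 and 26.4 RPKM in BSCs and at 12.6, 13.7 and 14.3 RPKM in non-basal cells. The log2 fold change was 0.86 (SE 0.11, adjusted p = 5.36e-06 by edgeR), with no overlap of the groups. Alveolar libraries held 18.4, 19.0 and 18.1 RPKM and EpCAM-negative libraries 19.4, 19.1 and 19.7 RPKM. The airway gates were lower, at 17.3, 14.1 and 14.4 RPKM in CD24hi cells and 12.9, 15.9 and 11.4 RPKM in CD24lo cells. CD24lo cells had less *Tead3* than alveolar cells by a log2 fold change of -0.46 (SE 0.12, adjusted p = 0.00308 by edgeR).

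*Tead2* (chromosome 7, 45215792 to 45233468) and *Tead4* (chromosome 6, 128227143 to 128300813) were the least abundant per length in epithelium and ran in opposite directions between epithelial and non-epithelial cells. *Tead2* was at 16.8, 15.7 and 16.96 RPKM in EpCAM-negative cells and at no more than 5.74 RPKM in any epithelial library. Its log2 fold change against lung epithelium was 2.55 (SE 0.19, adjusted p = 9.65e-10 by edgeR). *Tead4* was at 0.705, 0.725 and 0.718 RPKM in EpCAM-negative cells, from 27 to 29 reads per library, and its log2 fold change against lung epithelium was -1.81 (SE 0.21, adjusted p = 5.16e-07 by edgeR). In the alveolar libraries it held 3.49, 3.80 and 3.48 RPKM.

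Within epithelium, *Tead2* was at 1.79, 2.01 and 1.72 RPKM in BSCs and at 0.628, 0.664 and 0.816 RPKM in non-basal cells, a log2 fold change of 1.38 (SE 0.28, adjusted p = 5.18e-04 by edgeR) with no overlap. CD24hi libraries held 5.74, 3.82 and 3.35 RPKM and CD24lo libraries 3.96, 1.76 and 1.47 RPKM, a log2 fold change of 0.82 (SE 0.28, adjusted p = 0.0181 by edgeR) in which the groups overlapped. In both gates mouse 4 gave the highest value. The summed level of 6 endothelial markers was also highest in mouse 4, at 224, 101 and 60.7 RPKM in CD24hi and 297, 138 and 123 RPKM in CD24lo libraries. Fibroblast and smooth muscle sums were highest in mouse 4 in both gates too. In alveolar libraries mouse 4 had the highest *Tead2* (2.62, 1.91 and 1.86 RPKM) but the lowest endothelial sum (55.5, 103 and 70.4 RPKM). The part of these markers in the *Tead2* values was not tested. Leaving out the 4 libraries of mouse 4 gave a log2 fold change of 1.14 for CD24hi over CD24lo cells (adjusted p = 9.09e-05 by edgeR). The call was lost without CD24hi replicate 1 (0.56), without CD24lo replicate 2 (0.63) or 3 (0.58), and in a fit of those 6 libraries alone (0.81, adjusted p = 0.119). The CD24hi library was the higher in each of the 3 mice, and the same 6 libraries with the mouse as a block gave 0.89 and a call (adjusted p = 0.00922). *Tead4* went the other way between these gates, at 1.86, 1.16 and 1.23 RPKM in CD24hi cells and 2.57, 3.86 and 2.99 RPKM in CD24lo cells, with a log2 fold change of -1.15 (SE 0.22, adjusted p = 2.36e-04 by edgeR). In trachea *Tead4* was at 2.98, 3.79 and 4.45 RPKM in BSCs and 3.08, 4.42 and 4.30 RPKM in non-basal cells, overlapping groups with a 95% interval of the log2 difference from -0.46 to 0.31.

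**Figure D2:**
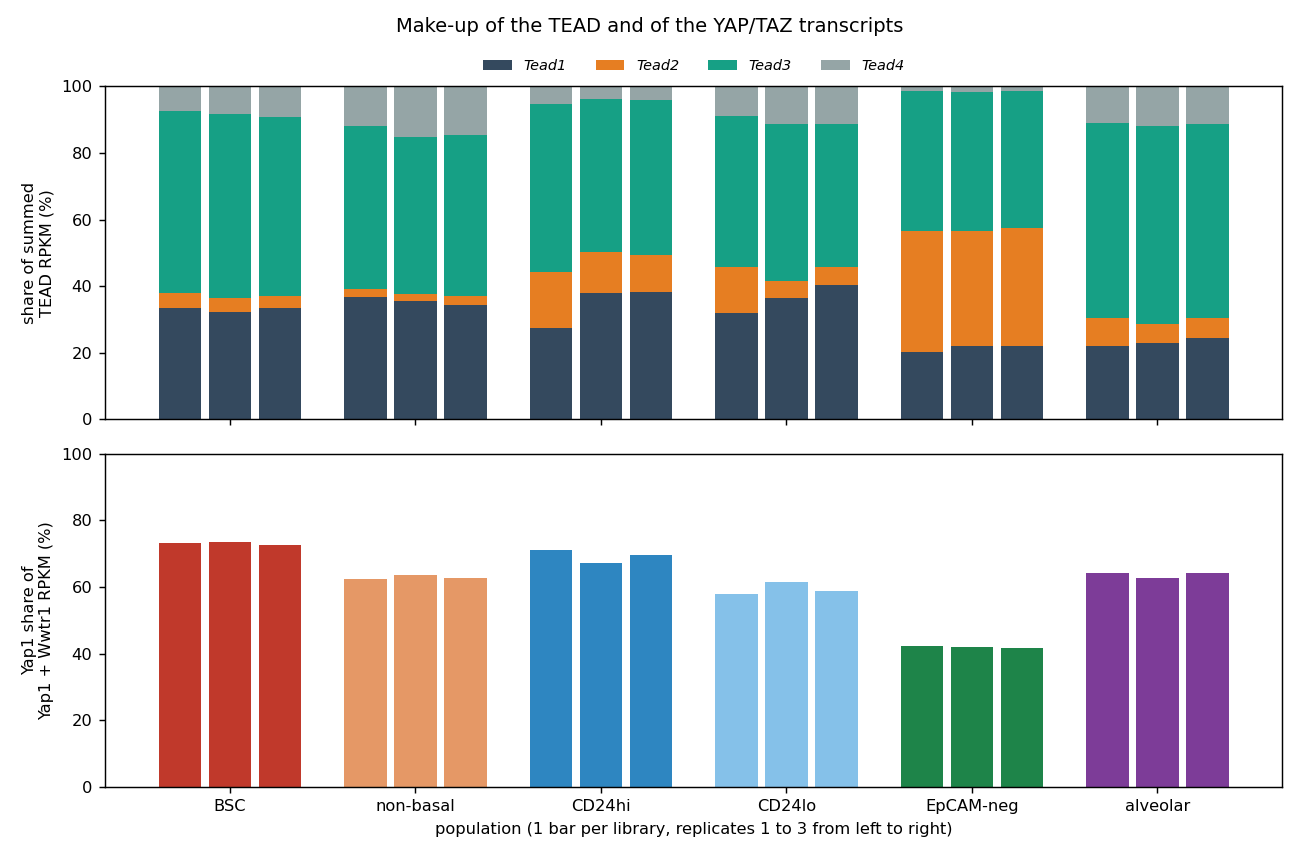
Upper panel, share of each TEAD gene in the summed RPKM of the 4 TEAD genes (%), and lower panel, share of *Yap1* in the summed RPKM of *Yap1* and *Wwtr1* (%), with 1 bar per library in 6 populations. *Tead2* held 34.5 to 36.3% in EpCAM-negative libraries and no more than 16.7% in any other, and the *Yap1* share fell below 50% in EpCAM-negative libraries alone.

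The summed TEAD level was 44.9 ± 4.84 RPKM (SD, n = 3) in BSCs and 46.6 ± 1.22 RPKM in EpCAM-negative cells. It was 28.2 ± 2.05 RPKM in non-basal cells, 31.9 ± 2.07 RPKM in CD24hi, 29.7 ± 3.80 RPKM in CD24lo and 31.5 ± 0.46 RPKM in alveolar cells. On the TMM scale BSCs and EpCAM-negative cells thus had like totals built from different genes. In BSCs *Tead3* and *Tead1* made up 54.5% ± 0.68 and 33.1% ± 0.71 of the total, and *Tead2* 4.13% ± 0.54. In EpCAM-negative cells *Tead2* made up 35.4% ± 0.91, behind *Tead3* at 41.6% ± 0.52, and *Tead4* 1.54% ± 0.05. *Tead4* had its largest share in non-basal cells, 13.9% ± 1.72. *Tead3* was the largest component per length in each of the 6 populations, from 41.6% to 58.8%. As a share of reads, which favours long transcripts, *Tead1* was the largest in each, from 50.3% to 66.0%.

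Among the regulators, *Lats2* (chromosome 14, 57689662 to 57746212), the kinase that phosphorylates YAP and TAZ, was set apart in EpCAM-negative cells. It was at 21.1, 21.8 and 24.6 RPKM there and between 5.30 and 8.98 RPKM in the 15 epithelial libraries. The log2 fold change against lung epithelium was 1.56 (SE 0.11, adjusted p = 3.87e-10 by edgeR). Between BSCs (5.81, 8.09 and 8.80 RPKM) and non-basal cells (5.30, 6.73 and 7.20 RPKM) the groups overlapped, but the BSC library was the higher in each of the 3 mice. With the mouse as a block in a fit of the tracheal libraries the log2 fold change was 0.22 and called (adjusted p = 0.00232 by edgeR), whereas the fit without the block gave 0.24 (SE 0.14, adjusted p = 0.17). Without BSC replicate 1 that fit gave 0.40 and a call (adjusted p = 0.016). The annotated exons of *Lats2* share 2955 of 6971 bases with the gene model *Gm49361* on the same strand, so reads of the 2 cannot be told apart there. *Yap1* and *Tead2* share 116 and 13 exon bases with genes on the other strand, *Gm20416* and *Cd37*.

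*Amotl2* (chromosome 9, 102717091 to 102733418) was lowest in BSCs, at 18.04, 21.2 and 20.8 RPKM. Alveolar libraries held 42.3, 46.3 and 47.2 RPKM and EpCAM-negative libraries 47.4, 45.9 and 47.4 RPKM. Against alveolar cells BSCs had a log2 fold change of -1.18 (SE 0.17, adjusted p = 1.11e-05 by edgeR). Non-basal libraries were spread from 21.1 RPKM in mouse 1 to 37.8 and 35.4 RPKM in mice 2 and 3. The log2 fold change of BSCs against them was -0.65 (SE 0.17, adjusted p = 0.00439 by edgeR), with mouse 1's non-basal library inside the BSC range. Without the libraries of mouse 1 it was -0.80, and with library size alone it was -0.31 and not called (adjusted p = 0.121). CD24hi libraries (27.5, 27.8 and 23.2 RPKM) lay below CD24lo libraries (35.3, 50.1 and 36.1 RPKM), a log2 fold change of -0.63 (SE 0.17, adjusted p = 0.00486 by edgeR).

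*Ajuba* (chromosome 14, 54567469 to 54577661) had the largest difference of the 9 genes in both BSC comparisons. The BSC libraries held 46.6, 63.1 and 66.9 RPKM and the non-basal libraries 8.36, 12.1 and 15.04 RPKM, with mouse 1 lowest in both gates. The difference was 2.31 on the log2 scale (SE 0.22, adjusted p = 1.25e-07 by edgeR), or 4.97-fold, and 2.26 without the libraries of mouse 1. Alveolar libraries held 4.50, 4.36 and 3.29 RPKM, which put BSCs 14.5-fold higher (log2 fold change 3.86, SE 0.24, adjusted p = 1.98e-10 by edgeR). The difference from non-basal cells had the same call in all 16 alternative analyses, and so did that from alveolar cells. In the lung airway *Ajuba* was at 9.24, 7.19 and 6.11 RPKM in CD24hi and 7.88, 8.38 and 5.78 RPKM in CD24lo cells. CD24lo cells held more than alveolar cells by a log2 fold change of 0.86 (SE 0.24, adjusted p = 0.00651 by edgeR). EpCAM-negative libraries held 3.83, 3.65 and 5.46 RPKM, and their difference from lung epithelium (log2 fold change -0.49, SE 0.20, adjusted p = 0.0347 by edgeR) lost its call in 9 of 22 alternative analyses.

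**Figure D3:**
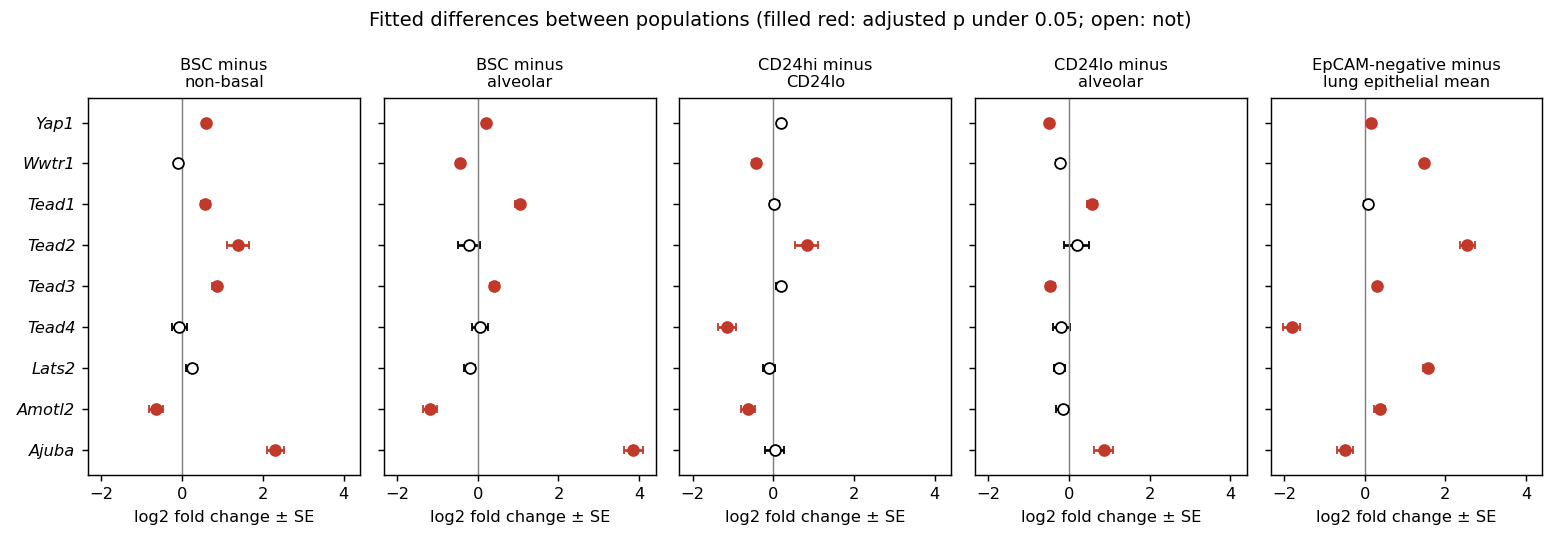
Fitted log2 fold change (x axes) with its standard error (bars) of the 9 genes in 5 comparisons; filled red points have an adjusted p-value under 0.05 and open points do not. *Ajuba* lay farthest from 0 in both BSC comparisons, at 2.31 and 3.86, and *Tead2* farthest in the EpCAM-negative comparison, at 2.55.

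Counted over the 9 genes, 5 were higher in BSCs than in non-basal cells (*Yap1*, *Tead1*, *Tead2*, *Tead3*, *Ajuba*) and 1 was lower (*Amotl2*). Of all genes tested 48.2% were called in this comparison, 21.9% higher and 26.2% lower. Against alveolar cells BSCs had more of 4 (*Yap1*, *Tead1*, *Tead3*, *Ajuba*) and less of 2 (*Wwtr1*, *Amotl2*), where 66.1% of all genes were called, 30.5% higher and 35.6% lower. In CD24hi against CD24lo cells 1 was higher (*Tead2*) and 3 lower (*Wwtr1*, *Tead4*, *Amotl2*), where 55.0% of all genes were called, 27.8% higher and 27.2% lower. In CD24lo against alveolar cells 2 were higher (*Tead1*, *Ajuba*) and 2 lower (*Yap1*, *Tead3*), where 48.4% of all genes were called, 24.2% in each direction. In EpCAM-negative against epithelial lung cells 6 were higher (*Yap1*, *Wwtr1*, *Tead2*, *Tead3*, *Lats2*, *Amotl2*) and 2 lower (*Tead4*, *Ajuba*), where 69.0% of all genes were called, 35.5% higher and 33.4% lower. With shares of called genes this large, counts of 4 to 8 among 9 genes are not read as a result about the members. In the last comparison the differences of *Yap1* (0.17), *Amotl2* (0.37) and *Ajuba* were small and depended on single libraries, and without EpCAM-negative replicate 1 or without mouse 4 the count of members called was 5. The median log2 fold change of the members was 0.57, 0.06, 0.02, -0.19 and 0.32 in these 5 comparisons in turn, and that of all genes -0.02, -0.09, -0.06, 0.03 and -0.01. The comparisons share populations (BSCs are in the first 2 and alveolar cells in 3), so they are not independent. Where TMM was replaced by library size, the median of all genes moved to 0.31, 0.29 and 0.21 in the first 3 comparisons, and the split of all calls to 7780 higher and 2989 lower (from 3948 and 4720), 7924 and 4363 (from 5485 and 6410) and 7002 and 3233 (from 4998 and 4901). The members then split into 7 higher and 0 lower, 5 and 1, and 4 and 1 in these comparisons.

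Placed in order of level, neighbouring populations were often not told apart. For *Yap1*, BSCs differed from the next population and EpCAM-negative from CD24hi cells (0.21), but alveolar from EpCAM-negative cells did not (adjusted p = 0.306 by edgeR), nor did CD24hi, non-basal and CD24lo cells from one another in turn. For *Lats2* and *Wwtr1* the step from EpCAM-negative to alveolar cells was called (log2 differences 1.37 and 1.18), while the next 4 steps of *Lats2* were not, and of the rest of *Wwtr1* the last alone was, from BSCs to CD24hi cells (0.23). *Tead2* had called steps from EpCAM-negative to CD24hi (1.94), from CD24hi to CD24lo (0.82) and from BSCs to non-basal cells (1.38). For *Amotl2* none of the 5 steps was called, although BSCs lay below EpCAM-negative cells by 1.23 (adjusted p = 5.71e-06). For *Tead4* the 4 highest populations were not told apart, and CD24hi and EpCAM-negative cells each lay a called step lower (1.15 and 0.98). For *Tead1* BSCs lay above CD24hi cells by 0.44 and non-basal above alveolar cells by 0.46, both called, with 4 populations between not separated. *Tead3* had called steps from BSCs to EpCAM-negative cells (0.34) and from alveolar to CD24hi cells (0.28), and *Ajuba* from BSCs to non-basal (2.31), from non-basal to CD24hi (0.66) and from CD24lo to EpCAM-negative cells (0.77). The share of all genes called between 2 populations was 72.0% for BSCs and CD24hi, 63.8% for BSCs and CD24lo and 70.3% for BSCs and EpCAM-negative cells. For non-basal cells it was 68.4% against CD24hi, 53.1% against CD24lo, 71.6% against EpCAM-negative and 64.0% against alveolar cells. For the remaining lung pairs it was 72.2% between CD24hi and EpCAM-negative, 63.4% between CD24lo and EpCAM-negative and 61.9% between alveolar cells and either CD24hi or EpCAM-negative cells.

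Of 6 genes of the core kinase cassette (*Stk3*, *Stk4*, *Sav1*, *Lats1*, *Mob1a*, *Mob1b*), BSCs had more of 3 and less of 1 than non-basal cells (median log2 fold change 0.19), and more of 4 and less of 0 than alveolar cells (median 0.64). *Sav1*, the scaffold that joins MST to LATS kinases, had the largest rise in both, 1.28 (adjusted p = 2.99e-07) and 1.15 (adjusted p = 5.53e-07), followed by the LATS co-activator gene *Mob1a* (0.53 and 0.89), and *Stk3* the only fall, -0.47 against non-basal cells. In CD24hi against CD24lo cells 2 were higher, *Mob1a* at 0.64 and *Stk4* at 0.26, and 1 lower, *Mob1b*, a paralog of *Mob1a*, at -1.25. In CD24lo against alveolar cells 1 was higher (*Sav1*, 0.44) and 1 lower (*Stk4*, -0.52). In EpCAM-negative cells 2 were higher, *Stk3* at 0.65 and *Mob1a* at 0.49, and 2 lower, *Mob1b* at -1.36 and *Stk4* at -0.50. The medians of these 3 comparisons were 0.14, -0.09 and 0.07. Of all genes 48.2%, 66.1%, 55.0%, 48.4% and 69.0% were called in the 5 comparisons in turn. Beside such shares the counts among 6 genes are not read as a result about the cassette.

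Of 22 upstream regulators and inhibitors, 12 rose and 5 fell in BSCs against non-basal cells (median log2 fold change 0.41). Against alveolar cells 10 rose and 7 fell (median 0.16). Of all genes 48.2% and 66.1% were called in these 2 BSC comparisons. *Amotl1*, a paralog of *Amotl2*, was higher by 2.86 and 2.06 where *Amotl2* was lower, and stood at 35.4 RPKM in BSCs and 4.86 RPKM in non-basal cells. *Ptpn14*, a phosphatase-family protein that binds YAP and is also in the target list, was higher by 1.36 and 3.40. *Frmd6*, a FERM-domain activator of the pathway, was higher by 1.84 than in non-basal cells, and its difference from alveolar cells was -0.23 (adjusted p = 0.172). *Dchs1*, an atypical cadherin gene, had few reads in trachea, with 1 to 4 reads per BSC library, 6 to 15 per non-basal library and 46 to 74 per alveolar library. *Taok3*, a kinase gene, was lower than in alveolar cells, at -2.71. The apical polarity gene *Crb3* was lower in BSCs, at -0.999 and -2.43, and *Wwc1* (KIBRA) at -0.92 and -1.37. Of all genes 55.0% were called in CD24hi against CD24lo, 48.4% in CD24lo against alveolar and 69.0% in EpCAM-negative against epithelial lung cells. In EpCAM-negative cells 12 of the 22 regulators were higher and 7 lower (median 0.22). *Crb3* and *Wwc1* were lowest, at -5.15 and -4.55, and the atypical cadherin genes *Fat4* and *Dchs1* highest, at 3.49 and 4.22. In CD24hi against CD24lo cells 5 were higher and 6 lower (median -0.04), with *Amotl1* (-1.72) and *Frmd6* (-1.20) the lowest and *Nf2* (Merlin, 0.87) and *Limd1* (a relative of *Ajuba*, 0.71) the highest. In CD24lo against alveolar cells 3 were higher and 10 lower (median -0.21), with *Ptpn14* (1.58) and *Tnik* (1.18) the highest and *Frmd6* (-1.60) and *Taok3* (-1.53) the lowest. The VGLL cofactors compete with YAP and TAZ for TEAD proteins. *Vgll1* and *Vgll2* were too low to test, and *Vgll3* was at 24.6 RPKM in EpCAM-negative cells and at no more than a mean of 2.00 RPKM in other populations (log2 fold change against lung epithelium 4.75). *Vgll4* was at 33.3 RPKM in BSCs and 37.1 RPKM in alveolar cells, and lower in CD24lo than in alveolar cells, at -1.99. Its difference between BSCs and non-basal cells was 0.57. *Vgll3* was lower in BSCs (-1.57) and in CD24lo cells (-0.75) than in alveolar cells and lower in CD24hi than in CD24lo cells (-1.93), and in EpCAM-negative cells *Vgll4* was higher than in lung epithelium by 0.45.

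Of the 20 target genes, 11 rose and 1 fell in BSCs against non-basal cells, the median log2 fold change being 0.43, or 0.69 over the 18 with more than 3 reads in some library of the pair; of all genes 21.9% were called higher and 26.2% lower there. Against alveolar cells 14 were higher and 4 lower (median 1.55), in EpCAM-negative against epithelial lung cells 15 higher and 5 lower (median 2.48), in CD24lo against alveolar cells 10 higher and 6 lower (median 0.53), and in CD24hi against CD24lo cells 4 higher and 9 lower (median -0.42). In these 4 comparisons in turn, 30.5%, 35.5%, 24.2% and 27.8% of all genes were called higher. The shares called lower were 35.6%, 33.4%, 24.2% and 27.2%. *Ccn2*, the matricellular gene most often read as a target, was at 120, 113 and 116 RPKM in BSCs, below the 152, 187 and 176 RPKM of non-basal cells (log2 fold change -0.56, adjusted p = 0.00286) and above the 20.2, 17.5 and 18.5 RPKM of alveolar cells (2.64, adjusted p = 4.78e-11). It was the 1 target called lower in BSCs than in non-basal cells. *Ccn1*, its relative, was at 671, 837 and 795 RPKM in BSCs and 421, 818 and 770 RPKM in non-basal cells, with mouse 1 lowest in both and overlapping groups (0.20, adjusted p = 0.441), and at 131, 121 and 124 RPKM in alveolar cells (2.61, adjusted p = 5.97e-09).

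*Axl*, a receptor tyrosine kinase, was at 40.5, 41.5 and 43.7 RPKM in BSCs against at most 6.91 RPKM in non-basal cells (log2 fold change 2.85, adjusted p = 2.14e-11) and at most 2.52 RPKM in alveolar cells (4.24, adjusted p = 3.49e-14). It was higher still in EpCAM-negative cells, at 91.6 to 96.2 RPKM. *Fjx1*, a regulator of Fat signalling, was the target with the largest rise in both BSC comparisons (3.14 and 6.01, the latter against 3 to 8 reads per alveolar library), and *F3* (tissue factor) was higher than in alveolar cells by 5.18. At the other end, the transcription factor gene *Foxf2* had 0 to 1 reads per BSC library against 66 to 108 per alveolar library, and *Ccdc80* was lower by a log2 fold change of -4.27. *Ankrd1*, a standard reporter of YAP in other tissues, had 0 reads in all 6 tracheal libraries, which allows at most 3 reads per library, and 87 to 102 reads in EpCAM-negative libraries (4.07 to 4.64 RPKM). *Ccn2* and *Axl* were lower in CD24hi than in CD24lo cells by -1.90 and -1.77 (adjusted p = 1.16e-08 and 8.42e-09), while *Ccn1* was not called there (0.07, adjusted p = 0.804). *Tgfb2* (-2.42) and *Rbms3* (-2.36) were the lowest targets in that comparison and *Nt5e* (1.61) and *Crim1* (1.30) the highest. In CD24lo against alveolar cells *Ccn1*, *Ccn2* and *Axl* were higher by 0.82, 0.66 and 1.51, with *F3* (3.08) and *Nt5e* (3.01) the highest targets and *Igfbp3* (-1.46) and *Foxf2* (-1.13) the lowest. In EpCAM-negative cells the 4 genes were higher than in lung epithelium by 2.71 (*Ccn1*), 3.85 (*Ccn2*), 3.26 (*Ankrd1*) and 4.99 (*Axl*), and *Ccdc80* by 6.12, while *Nuak2* (-1.67) and *Dock5* (-1.44) were lowest. Several of the listed targets are matrix or mesenchymal genes that fibroblasts express, and fibroblast markers were at 6850 to 7155 RPKM in these libraries and at no more than 217.6 RPKM in the others. Their part in the target counts was not tested.

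*Ccn1* is also an immediate-early gene, one of those that respond within minutes to handling and enzymatic digestion, and trachea and lung were dissociated with different enzymes. Of 10 other immediate-early genes such as *Fos* and *Egr1*, 10 rose in BSCs against non-basal cells and 10 against alveolar cells (medians 0.74 and 1.72). In CD24hi against CD24lo, CD24lo against alveolar and EpCAM-negative against epithelial cells 4, 7 and 8 were higher and 0 lower. Of all genes 21.9%, 30.5%, 27.8%, 24.2% and 35.5% were called higher in these 5 comparisons in turn. Their summed level was 12259 to 15835 RPKM in BSCs, 6704 to 9421 RPKM in non-basal cells and 4061 to 4795 RPKM in alveolar cells, and lowest in mouse 1 in both tracheal gates. The part of this summed level in the levels of *Ccn1*, *Ccn2*, *Ajuba* or *Amotl2* was not tested.

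**Figure D4:**
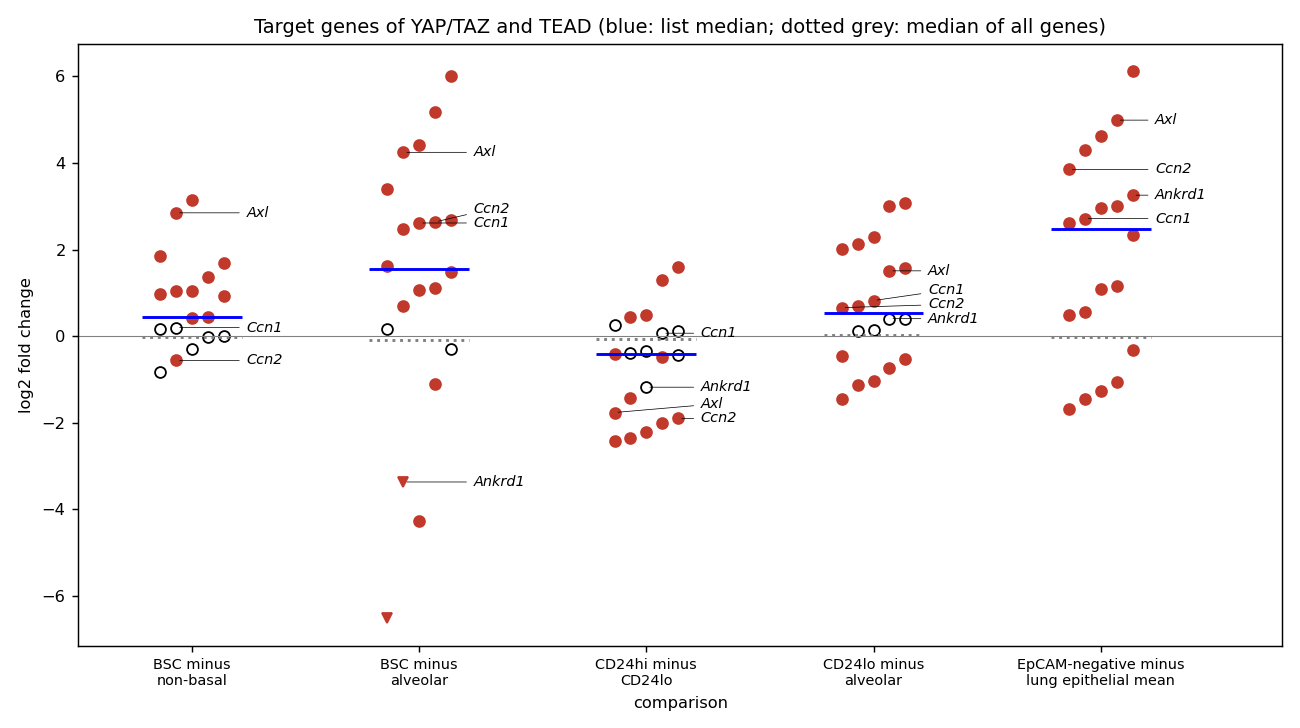
Log2 fold change (y axis) of up to 20 YAP/TAZ and TEAD target genes in 5 comparisons (x axis), filled red where the adjusted p-value was under 0.05 and open where not, with the list median (blue line) and the median of all genes (dotted grey). Triangles mark *Ankrd1* and *Foxf2* in BSCs against alveolar cells, drawn against 3 reads per BSC library, and both are left out of BSCs against non-basal cells for lack of reads. The blue line of BSCs against non-basal cells is still the median of all 20 genes (0.43), which counts both. *Axl* lay at 2.85, 4.24 and 4.99 in the BSC and EpCAM-negative comparisons and at -1.77 in CD24hi against CD24lo cells.

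Finally, genes were ranked by how closely their log2 CPM profile over the 18 libraries, centred on its own mean, followed that of each member, among 10495 genes whose average reached 10 CPM. The measure is the root mean square difference. For *Ajuba*, whose own profile had a root mean square of 1.32, the nearest were *Itga6* (0.33), an integrin subunit that pairs with CD104, and *Dusp6* (0.41), a phosphatase of ERK kinases. For *Tead2* (1.40) they were *Agpat4* (0.34) and *Marcks* (0.44), for *Tead4* (0.92) *Arhgap27* (0.22) and *Pak1* (0.32), for *Wwtr1* (0.60) *Ctso* (0.14) and *Prkca* (0.19), and for *Lats2* (0.64) *Impdh2* (0.20) and *Stat5b* (0.21). *Yap1* varied least of the 9 (0.24) and had *Tubgcp6* (0.12) and *Rad21* (0.12) nearest, *Tead1* (0.32) had *Tnrc6a* (0.12) and *Frmd4b* (0.13), *Tead3* (0.33) had *Rere* (0.13) and *Sppl3* (0.14), and *Amotl2* (0.49) had *Zrsr1* (0.20) and *Slc48a1* (0.24). These distances are descriptions over libraries that share mice and populations.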

How the data were processed

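RNA of 18 sorted mouse libraries was sequenced as 100 bp single-end reads. The authors aligned reads to mm10 with Rsubread and counted them per Entrez gene with featureCounts and its in-built RefSeq annotation (bcl2fastq 1.8.4 and featureCounts per the labels' processing notes); the strand setting is not given in the sources used here. The deposited values are raw counts with a gene length, and no normalization. A series table with the same counts was not used. Groups and mouse numbers came from the labels, whereas the series' design text speaks of airway cells of lungs and not of trachea. Symbols and coordinates came from NCBI's GRCm38.p6 table.

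The filter kept genes over 0.2 CPM in 3 or more libraries. Counts were then TMM-scaled and tested in R 4.3.3 with edgeR 4.0.16 (glmQLFit, glmQLFTest) in one fit of 6 group means. The SE is the log2 fold change divided by the square root of F. The code was tested on simulated data. Lists and members were chosen with earlier results of these data known. From the lists, the genes named are those at either end of the called log2 fold changes (the 2 highest and 2 lowest per list and comparison, where called), plus *Ccn1*, *Ccn2*, *Ankrd1* and *Axl*. Other list genes given with values (*Ptpn14*, *Wwc1*, *Crb3* or *Frmd6* outside their extremes) were chosen after their values were seen. Promoter sequences are RefSeq's (GRCm38.p6), and overlaps of exons were read from GENCODE vM21. Alternatives were limma voom 3.58.1, RLE factors, DESeq2 1.42.0, a filter at 1 CPM, no filter, scaling by library size, only the libraries compared, a replicate block, removal of each library's trend with gene length, thinning of tracheal libraries, and leaving out each library. Leaving out mouse 1 or mouse 4 was added after the data were seen.

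Same-numbered tracheal libraries come from one mouse by the labels. Their deviations from the group means correlated at 0.34, 0.12 and 0.22, and those of lung libraries of one mouse between -0.06 and 0.28. No 2 replicates agreed within counting noise (chi-square per degree of freedom at least 3.67). In the BSC, non-basal, CD24hi and CD24lo gates replicate 1 stood apart. Its pairs gave 22.47 to 42.42, and replicates 2 and 3 gave 5.48 to 7.88. Among alveolar libraries replicate 2 stood apart, at 41.06 and 39.16 against 6.05 between replicates 1 and 3. The reason was not tested.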

Additional observations from a re-analysis of the deposited data

How the results depend on the processing

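Of the 28 calls on members in the 5 comparisons, 19 held under every alternative tried, and over all calls and alternatives 457 of 496 kept direction and call. The count of members called moved by more than 1.5 times only for EpCAM-negative against epithelial lung cells, from 8 to 5, without the libraries of mouse 4 or without EpCAM-negative replicate 1 alone. Over single libraries left out it was 5 to 8 there, and 6 to 7, 5 to 6, 3 to 5 and 4 in the other 4 comparisons. One call changed direction: *Yap1* in that comparison, at -0.011 with the gene length trend removed, where *Tead1*, which was not called, was at -0.113. The other changes of direction were in differences that were not called with TMM. With library size alone they were *Wwtr1* (0.25, called there) and *Tead4* (0.27) in BSCs against non-basal cells, *Tead2* (0.186) and *Lats2* (0.203) against alveolar cells and *Lats2* (0.18) in CD24hi against CD24lo cells; the median of all genes was then 0.31, 0.292 and 0.214, above each of these values. *Wwtr1* and *Amotl2* also lost their calls in CD24hi against CD24lo cells with library size alone (-0.145 and -0.336). Over single libraries left out, values ran from -0.221 to 0.068 for *Tead4* in BSCs against non-basal cells, from -0.085 to 0.199 for *Tead4* against alveolar cells, from -0.079 to 0.134 for *Tead1* and -0.146 to 0.159 for *Ajuba* in CD24hi against CD24lo cells, from -0.398 to 0.436 for *Tead2* in CD24lo against alveolar cells and from -0.003 to 0.125 for *Tead1* in EpCAM-negative cells. Leaving out mouse 4 gave *Ajuba* -0.094 and *Tead2* -0.215 in the 2 airway comparisons. The cause was not tested. In fits of the compared libraries alone, 10119, 12342, 7450, 7964 and 11822 genes were called without the replicate block and 11199, 12297, 8442, 7723 and 11936 with it, against 8668, 11895, 9899, 8707 and 12407 in the fit of all libraries. The block added *Wwtr1* and *Lats2* to the calls in BSCs against non-basal cells (8 members called, 6 without it), and *Tead2* in CD24hi against CD24lo cells (4, 3 without it). *Yap1* in EpCAM-negative cells was not called in these fits without the block (0.17, adjusted p = 0.0652) or with it (0.17, adjusted p = 0.0718). BSCs and alveolar cells come from different mice, so their numbers do not pair. *Tead2* and *Tead4* rest on the fewest reads, 27 to 161 per epithelial lung library and 27 to 127 per lung library.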
